A study of Saccharomyces cerevisiae with 31 samples.

Results

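The cytosolic translation factors examined here are 45 genes of budding yeast, out of the 6713 genes in the authors' deposited table of scaling scores. They were picked by gene name, from a list drawn up with earlier results of these data known: 28 genes of translation initiation, 11 of elongation, 2 of termination and 4 of the Gcn pathway. All 45 were found in the table. Transcripts were measured by RNA-seq in 31 libraries that form 6 series. In 4 series the cells were Cdc28-as, a strain whose cyclin-dependent kinase Cdc28 has been altered so that the bulky inhibitor 1NM-PP1 can block it. These cells stop dividing and go on growing. In 3 of these series (elutriation experiments 1, 2 and 3, with 5, 3 and 3 libraries) small cells were first collected by elutriation, which sorts cells by size while they spin, before 1NM-PP1 was added. Their labelled sizes ran over 15.23 to 50.77, 14.92 to 41.8 and 18.61 to 66.46 fl (femtolitres). The fourth, a time course after 1NM-PP1 with no elutriation, had 8 libraries over 21.56 to 44.02 fl. The other 2 series were wild-type (WT) cells that were given 1NM-PP1 too. WT cells were followed over 2 to 7 h after elutriation and over 0 to 6 h without it, with 6 libraries each. All cultures grew in rich medium with ethanol, and a known amount of Candida albicans cells was added to each before RNA was extracted. The labels do not say whether the series came from separate cultures or clones.

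Translation starts when the initiator tRNA, carried by eIF2, is brought to the small ribosomal subunit with eIF1, eIF1A, eIF3 and eIF5. The eIF4 group brings in the capped mRNA, and eIF2B recharges eIF2 with GTP. Elongation then needs eEF1A to deliver tRNAs, eEF2 to move the ribosome, eIF5A for difficult stretches and, in fungi, eEF3. The kinase Gcn2, with Gcn1 and Gcn20, senses uncharged tRNA and phosphorylates eIF2, which raises translation of the transcription factor Gcn4. Most of these factors are abundant proteins, and their mRNAs are known to follow growth rate much as those of ribosomal proteins do.

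The deposited value is a scaling score per gene and series, with no value per library. It was read here as the slope of the level, relative to the first library of the series, on size (per fl) or on hours. This was checked only on the value a gene would take if detected in the first library alone. In experiments 1 and 3 and both WT series, 44 to 111 genes held that value. For all other genes, and for experiment 2 and the time course, the reading was assumed. At 0 the level was flat on the authors' scale. On this reading a level in proportion to size would score 0.0657, 0.0670 and 0.0537 per fl in the 3 elutriation experiments and 0.0464 per fl in the time course. These slopes assume that the level is an amount per cell, which is not given. If the level is a share of the library, they do not mark a transcript that keeps pace with size. Size and time in arrest increase together, and their slopes cannot be told apart. The unit differs between the strains (fl for Cdc28-as, hours for WT), so each gene is also given as a percentile, the percentage of all scored genes of that series that scored lower. In these bulk libraries, fewer cells with a transcript and less of it per cell cannot be told apart. The authors' median read count in experiment 1 had a median of 77.5 over the 45 factors, with a range of 2.5 to 623, against 19 over all genes. It reached 10 reads for 41 of the 45.

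Translation factor transcripts lay mostly above the typical gene in the arrested, elutriated cells, by a wide margin in experiment 1 and a narrow one in experiment 3. Their median scores in the 3 experiments were 0.0447, 0.0212 and 0.00297 per fl, where the median of all genes was 0.00701, 0.0108 and 0.00132 per fl. As percentiles the median factor stood at 80.8, 65.4 and 55.6. In the time course it stood at 52.3, close to the middle of all genes, at a score of -0.0196 per fl beside -0.0201 per fl for all genes. All 45 factors scored below 0 in the time course, the highest at -0.00727 per fl, as did 95.3% of all genes. By percentile WT cells had the factors high as well, with a median of 84.4 after elutriation and 65.7 without it. Scores in elutriated WT cells ran up to 80.1 per hour for the factors, with a median of 2.58 per hour. Over all genes the median there was 0.136 per hour and the highest score 378 per hour. Read as slopes relative to the first library, scores this high depend on the level in that library, which is not given. The part of that level was not tested.

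**Figure D1:**
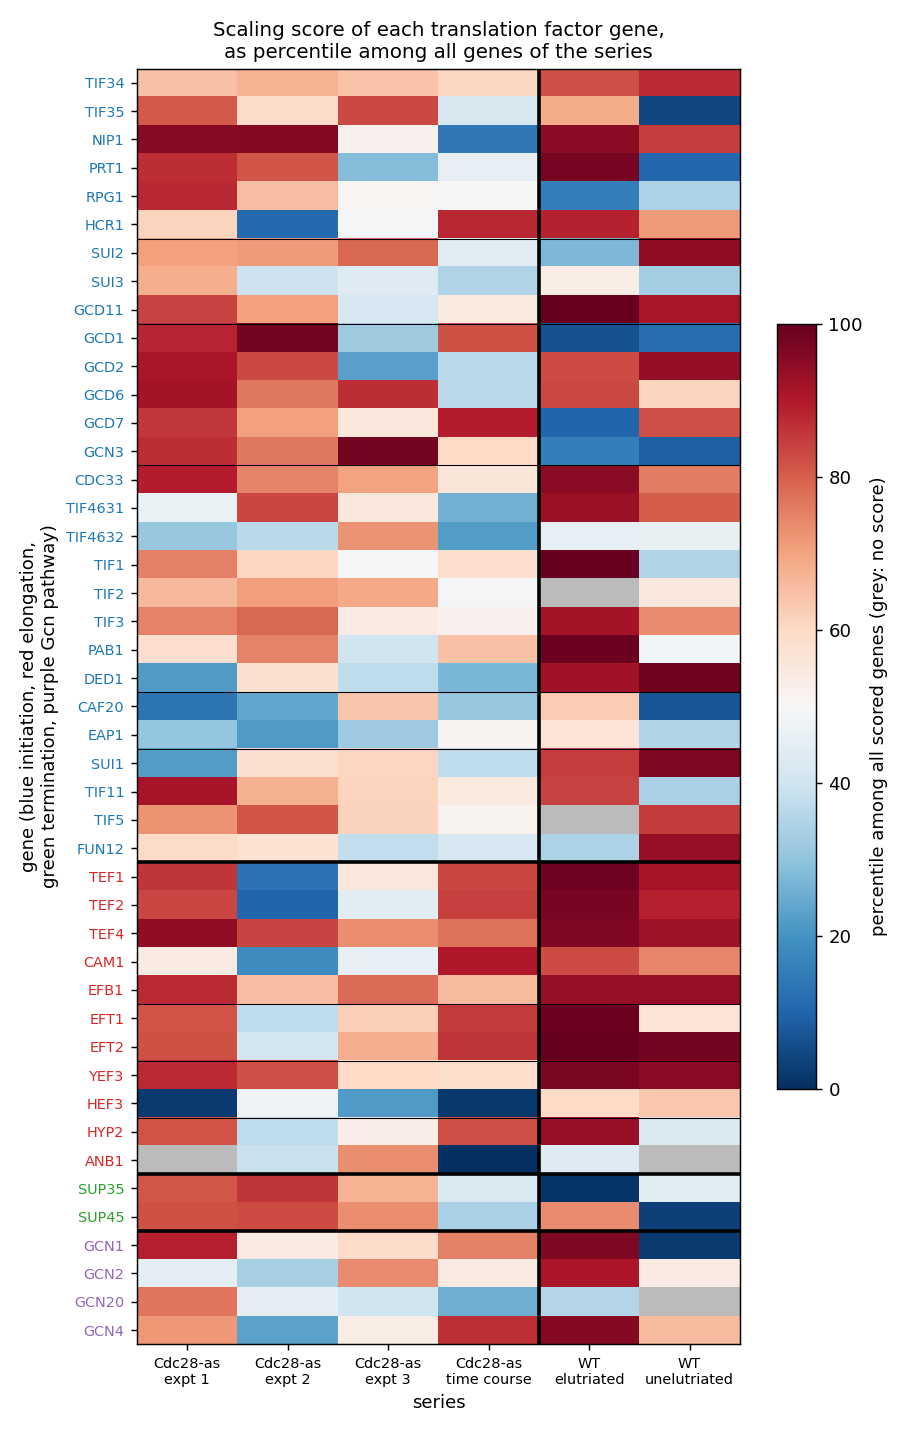
Percentile of the scaling score of each of the 45 genes (rows, grouped by complex) among all scored genes of each series (columns, Cdc28-as left of the thick line, WT right of it; colour from 0 to 100, grey for no score). Most cells of the experiment 1 and elutriated WT columns are red, with medians of 80.8 and 84.4, and the time course column is mixed, with a median of 52.3.

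Scores were then set against that of the median gene, found in each experiment over the 5771 genes scored in all 3, of which 44 were translation factors. ANB1 has no score in experiment 1. Throughout means here that a gene kept to 1 side of it, above or below, in each of the 3 experiments. This held for 18 of the 44 above (40.9%) and 2 below (4.55%), where 22.3% of all genes lay above throughout and 22.5% below. With the time course added to the 3 experiments 11 factors lay above (25%, against 13.1% of all genes) and 1 below (2.27%, against 13.4%). The number below was 7 without experiment 1 (15.6%, against 31% of all genes) and 5 without experiment 3 (11.4%, against 31.3%). The median factor's mean over the 3 experiments was 0.0125 per fl over the median gene, against 0.00249 per fl for all genes. Experiment 1 contributed most to that value, which was 0.00650 per fl without experiment 1, 0.0206 per fl without experiment 2 and 0.0166 per fl without experiment 3. No translation factor passed limma's one-sample test over the 3 experiments at an adjusted p of 0.05, and neither did any of the 5771 genes (0%). At an unadjusted p under 0.05 limma gave 2 factors, GCN3 and SUP45, both above the median gene. The same rule gave 5.27% of all genes above and 3.73% below. With 1 score per series and 3 series, p-values measure only the spread between these series.

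**Figure D2:**
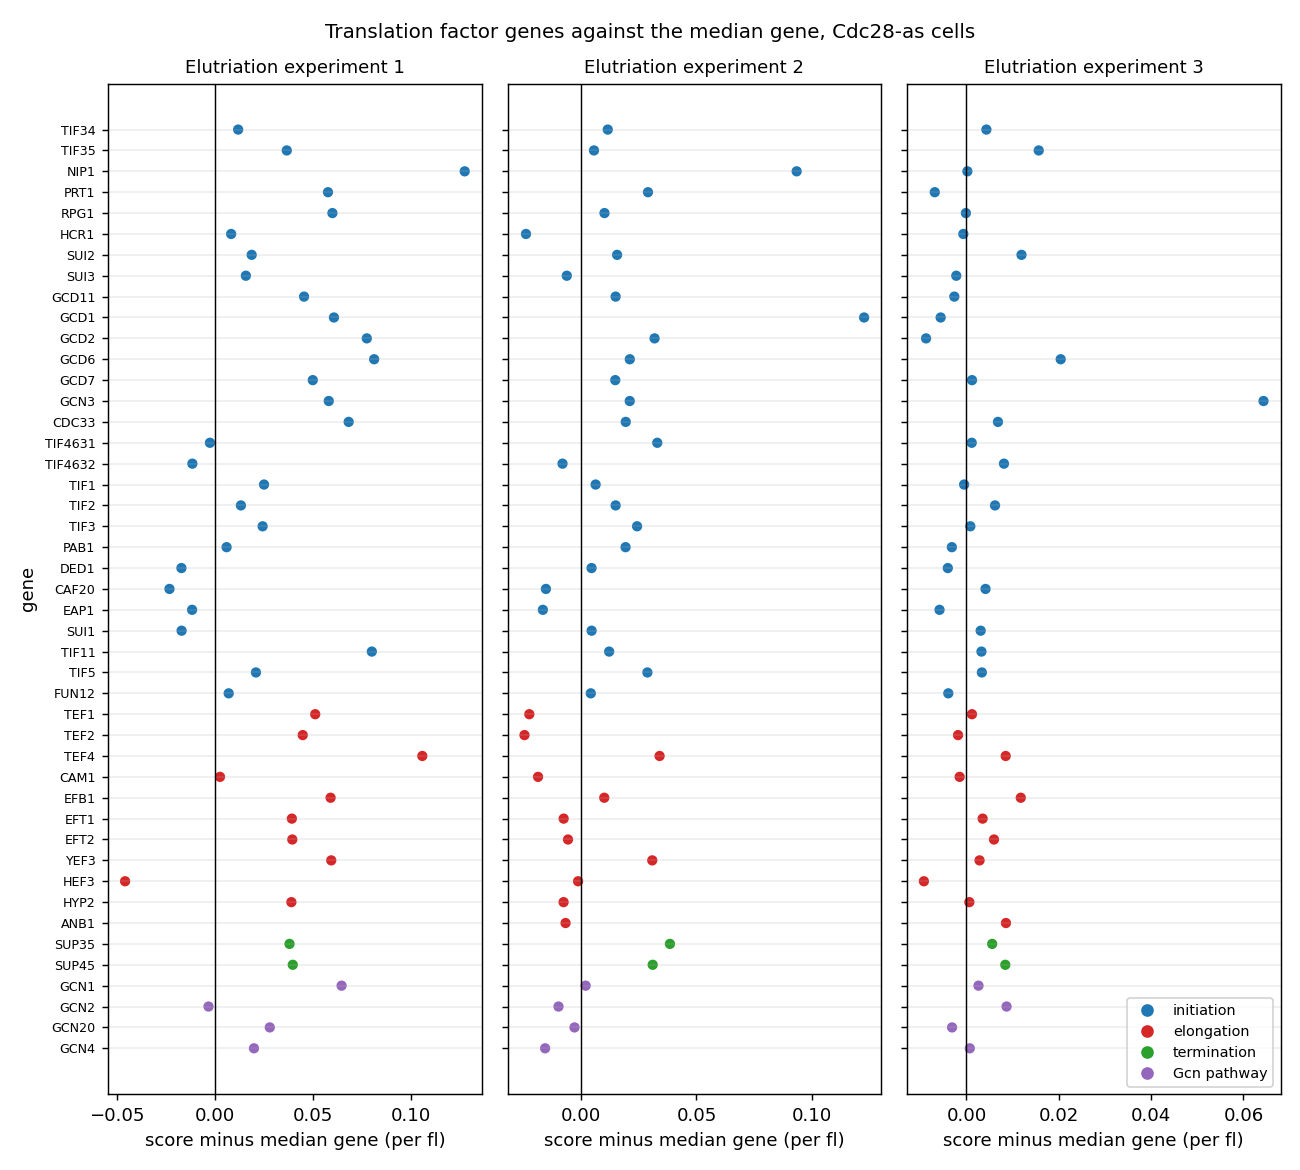
Score of each translation factor gene minus the score of the median gene, in per fl, in elutriation experiments 1, 2 and 3 (panels, each with its own horizontal scale; points coloured by role). Most points lie right of 0, and the elongation genes TEF1, TEF2, EFT1, EFT2 and HYP2 lie right of 0 in experiment 1 and left of it in experiment 2.

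The eIF3 complex is the scaffold that holds the small subunit and its mRNA together. Of the 6 eIF3 genes 3 lay above the median gene throughout (50%, against 22.3% of all genes). None lay below throughout (0%, against 22.5%). NIP1, the c subunit of eIF3, had the highest mean over the 3 experiments of the 44 factors. It scored 0.135, 0.104 and 0.00196 per fl after elutriation (experiments 1, 2 and 3) and -0.0312 per fl in the time course. In WT cells NIP1 scored 13.4 per hour after elutriation and 0.0766 per hour without it. NIP1 was thus at the 95.6th and 96.0th percentile in experiments 1 and 2, in the middle (52.2) in experiment 3 and low (14.2) in the time course. By limma its mean over the median gene was 0.0737 per fl with an SE of 0.0286 and an adjusted p of 0.460. HCR1, the loosely bound j subunit, was the lowest of the complex, at 0.0155, -0.0127 and 0.00109 per fl in experiments 1 to 3. HCR1 scored -0.00861 per fl in the time course, 4.26 per hour in elutriated WT and 0.0158 per hour in unelutriated WT cells. HCR1 was low in experiment 2 and high in the time course, where NIP1 was high and low, with percentiles of 11.1 and 87.8 for HCR1. The other eIF3 genes, RPG1, PRT1, TIF34 and TIF35, scored 0.0191 to 0.0673 per fl in experiment 1, all above the median gene. In experiment 3 PRT1 and RPG1 lay below it, at -0.00510 and 0.00164 per fl, and the value of RPG1 was close to the median gene.

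Of eIF2, SUI2, the alpha subunit that Gcn2 phosphorylates, lay above the median gene throughout. SUI2 scored 0.0260, 0.0267 and 0.0137 per fl there, which are close together as percentiles (70.6, 71.4 and 78.7). GCD11, the gamma subunit that binds GTP and the initiator tRNA, had the highest mean of the 3 eIF2 genes, with 0.0528, 0.0261 and -0.000859 per fl, and -0.0190 per fl in the time course. GCD11 also had the highest score of any factor in elutriated WT cells, 80.1 per hour, a value that depends on an unknown level in the first library. In unelutriated WT cells GCD11 scored 0.136 per hour. SUI3, the beta subunit, was the lowest, at 0.0231, 0.00499 and -0.000440 per fl, -0.0238 per fl in the time course, and 0.175 and -0.0807 per hour in elutriated and unelutriated WT cells.

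All 5 eIF2B genes lay above the median gene in experiments 1 and 2, as did 31.3% of all genes. Of them 3 (GCD6, GCD7 and GCN3) also lay above it in experiment 3 (60%, against 22.3% of all genes). eIF2B is the exchange factor for eIF2 and the target of the Gcn pathway. Its median percentile was 87.9, 76.5 and 55.6 in experiments 1 to 3, the highest of the initiation complexes in experiments 1 and 2. GCD1, the gamma subunit, had the highest mean, with 0.0680, 0.134 and -0.00382 per fl in experiments 1 to 3 and -0.0114 per fl in the time course. In WT cells GCD1 scored -0.187 per hour after elutriation and -0.135 per hour without it, at percentiles of 6.51 and 12.5. GCN3, the alpha subunit needed for the response to phosphorylated eIF2, was the only factor at or over the proportional slope in experiment 3, with 0.0654, 0.0322 and 0.0661 per fl. In experiment 1 its median was only 9.5 reads, and its reads in experiment 3 are not given. By limma GCN3 exceeded the median gene by 0.0479 per fl, with an SE of 0.0114, an unadjusted p of 0.0163 and an adjusted p of 0.460. GCD7, the beta subunit, had the lowest mean of the complex and was still above the median gene throughout, at 0.0572, 0.0259 and 0.00297 per fl, with -0.00781 per fl in the time course. In WT cells GCD7 scored -0.143 per hour after elutriation, which is the value a gene takes when it is detected in the first library alone, and 0.0611 per hour without elutriation. GCD2 and GCD6 scored 0.0848 and 0.0886 per fl in experiment 1.

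Genes of the cap and eIF4 group were mixed. Of the 8 genes 3 lay above the median gene throughout (37.5%, against 22.3% of all genes) and none below (0%, against 22.5%). CDC33, which encodes the cap-binding protein eIF4E, had the highest mean, at 0.0756, 0.0305 and 0.00859 per fl in experiments 1 to 3 and -0.0187 per fl in the time course. In WT cells CDC33 scored 13.5 per hour after elutriation and 0.0317 per hour without it. It stood above the middle of all genes in all 6 series, at percentiles of 56.2 to 95.1. DED1, a helicase that opens structured leaders, was the lowest of the group, at -0.00986, 0.0157 and -0.00227 per fl and -0.0261 per fl in the time course. DED1 scored 7.78 and 0.440 per hour in elutriated and unelutriated WT cells, and its median of 10 reads is the lowest of the group. The eIF4G scaffold has 2 genes whose coding sequences are 58.7% identical, TIF4631 and TIF4632. TIF4631 scored 0.00470, 0.0441 and 0.00291 per fl in experiments 1 to 3 and -0.0264 per fl in the time course. TIF4632 scored -0.00427, 0.00313 and 0.00989 per fl there and -0.0278 per fl in the time course. Among the Cdc28-as series the pair differed most in experiment 2, where TIF4631 was at the 83.5th percentile and TIF4632 at the 36.4th. In elutriated WT cells they scored 9.70 and 0.103 per hour and in unelutriated WT cells 0.0521 and -0.0470 per hour, TIF4631 again higher. TIF3 (eIF4B) and PAB1, the poly(A)-binding protein, scored 0.0316 and 0.0132 per fl in experiment 1 and 0.0354 and 0.0304 per fl in experiment 2, above the median gene. In experiment 3 TIF3 stayed above it at 0.00261 per fl, and PAB1 lay below it at -0.00140 per fl.

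The 2 genes whose proteins bind eIF4E and keep it from eIF4G, CAF20 and EAP1, were at the low end of initiation. EAP1 was the only initiation gene below the median gene throughout (3.57% of 28, against 22.5% of all genes). It scored -0.00441, -0.00536 and -0.00407 per fl in experiments 1 to 3 and -0.0198 per fl in the time course. Its mean by limma was -0.0113 per fl against the median gene with an SE of 0.00605 and an adjusted p of 0.469. CAF20 scored -0.0160, -0.00403 and 0.00590 per fl in experiments 1 to 3 and -0.0249 per fl in the time course, with a median of 8.5 reads. In elutriated and unelutriated WT cells EAP1 scored 0.203 and -0.0749 per hour and CAF20 0.291 and -0.162 per hour. CDC33, the partner that both bind, stood higher in experiments 1 and 2, at percentiles of 89.3 and 74.9 against 30.8 and 21.7 for EAP1 and 13.9 and 23.9 for CAF20.

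Among the factors for start codon choice and subunit joining, TIF11 (eIF1A) had the highest mean and SUI1 (eIF1) the lowest. TIF11 scored 0.0874, 0.0233 and 0.00501 per fl in experiments 1 to 3, -0.0190 per fl in the time course, and 2.31 and -0.0777 per hour in elutriated and unelutriated WT cells. SUI1 scored -0.00978, 0.0157 and 0.00485 per fl in experiments 1 to 3, -0.0233 per fl in the time course, and 2.58 and 0.314 per hour in elutriated and unelutriated WT cells. The 2 factors bind the same small subunit at the start codon, and their percentiles in experiment 1 were 91.4 for TIF11 and 21.9 for SUI1. TIF5, the GTPase activator of eIF2, lay above the median gene throughout (0.0282, 0.0398 and 0.00510 per fl), and FUN12, the subunit-joining GTPase eIF5B, did so in experiments 1 and 2 (0.0143 and 0.0154 per fl).

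Elongation genes stood below initiation genes in experiment 2 and above them in the other 5 series. Their median percentile was 82.6, 38.8 and 60.05 in experiments 1 to 3 and 82.4 in the time course, where the 28 initiation genes had 73.5, 70.6, 54.7 and 49.6. In WT cells elongation genes had 96.3 after elutriation and 90.0 without it, and initiation genes 82.7 and 66.2. Of 10 scored elongation genes, 3 (TEF4, EFB1 and YEF3) lay above the median gene throughout (30%, against 22.3% of all genes). Below it throughout lay 1, HEF3 (10%, against 22.5%). Near-identical copies (TEF1 and TEF2, EFT1 and EFT2, and for initiation TIF1 and TIF2) count as separate genes in these values. Most short reads cannot tell such copies apart. In experiment 2 the TEF1, TEF2, EFT1 and EFT2 percentiles were 10.4 to 40.6, so the elongation median there may partly count the same signal more than once. The genes share depth as well as role, with read counts known for experiment 1 only. Elongation genes had a median of 196 reads there and initiation genes 65.5. Across all 45 factors the time course score had a Spearman rho of 0.475 with that read count, against 0.0691 over 6649 genes. In elutriated WT cells rho was 0.410 over the 43 scored factors and 0.344 over 6341 genes. The part of read depth in the difference between the roles, and in the high percentiles of the factors in elutriated WT cells, was not tested.

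**Figure D3:**
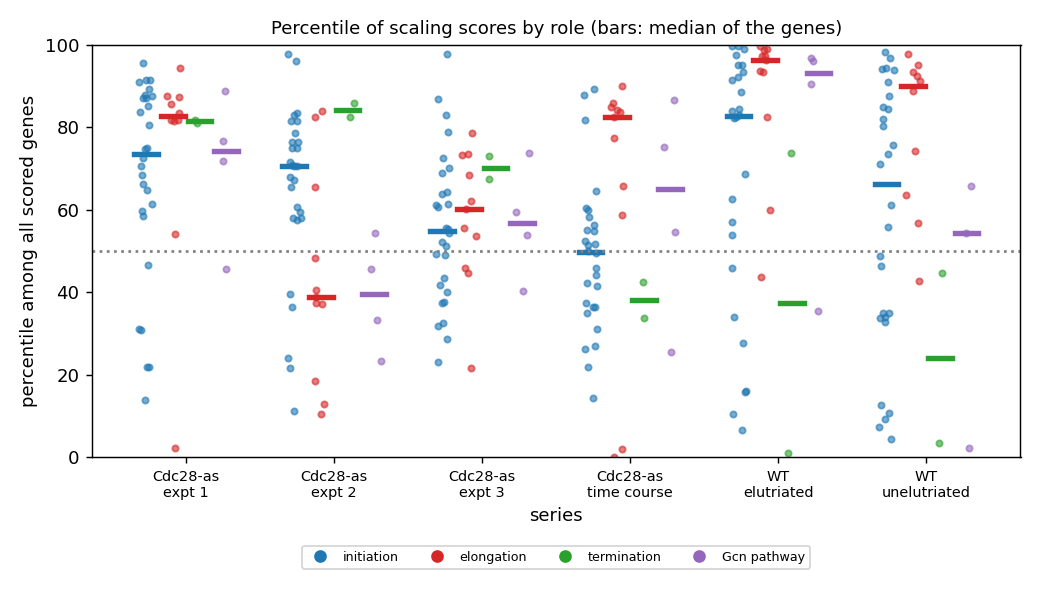
Percentile of the scaling score among all genes of each series, for genes of initiation, elongation, termination and the Gcn pathway (points, 1 per gene; bars, median of the genes; dotted line, the middle of all genes). Elongation stands below initiation in experiment 2, with medians of 38.8 and 70.6, and above it in the time course, with 82.4 and 49.6.

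The genes of eEF1A, eEF2 and the aerobic eIF5A all stood lower in experiment 2 than in the time course by percentile. TEF1 and TEF2, which encode the same eEF1A, the carrier of aminoacyl-tRNA, scored 0.0585 and 0.0521 per fl in experiment 1. In experiment 2 they scored -0.0112 and -0.0133 per fl, in experiment 3 0.00296 and -0.0000531 per fl, and in the time course -0.0106 and -0.0104 per fl. Both were thus high in experiment 1 and the time course, at percentiles of 83.5 to 85.6, and near the bottom in experiment 2, at 12.9 and 10.4. In elutriated WT cells TEF1 and TEF2 scored 38.1 and 25.9 per hour, and in unelutriated WT cells 0.140 and 0.111 per hour. Of the genes for the translocase eEF2, EFT1 scored 0.0465, 0.00363 and 0.00528 per fl over the 3 elutriation experiments, and EFT2 0.0468, 0.00551 and 0.00773 per fl. In the time course they scored -0.0101 and -0.00964 per fl, and in elutriated WT cells 43.3 and 67.6 per hour. By percentile EFT1 and EFT2 were furthest apart in unelutriated WT cells, at 56.7 and 97.8, with scores of -0.0226 and 0.394 per hour. HYP2, the eIF5A gene used in air, had a like order over the Cdc28-as series, with 0.0463, 0.00360 and 0.00239 per fl in experiments 1 to 3 and -0.0111 per fl in the time course. HYP2 scored 10.3 per hour in elutriated WT cells and -0.0561 per hour in unelutriated WT cells. The 5 genes were singled out after their values were seen, and 0 of the 5 lay on 1 side of the median gene throughout. Of all genes 22.3% lay above throughout and 22.5% below.

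These values have to be read beside the sequences, since near-identical copies cannot be told apart by most short reads. In the R64 genome the coding sequences of TEF1 and TEF2 differ at 2 of 1377 bases, those of EFT1 and EFT2 at 4 of 2529 and those of the eIF4A genes TIF1 and TIF2 at 6 of 1188. Of all stretches of 50 bases in TEF1, EFT1 and TIF1, 92.5%, 91.9% and 84.9% also occur in the copy. HYP2 and ANB1 differ at 43 of 474 bases and share no stretch of 50. The sources used here do not give the treatment of reads that match a pair of copies, so the likeness of TEF1 to TEF2, EFT1 to EFT2 and TIF1 to TIF2 is not evidence that each copy behaved alike. For each of these pairs the stretch of 60 coding bases with the most differences is shown, with the bases that differ in capitals. TEF1 (coding bases 732 to 791, chrXVI:701325-701384, plus strand), TEF2 (chrII:478402-478461, plus strand), EFT1 (coding bases 417 to 476, chrXV:575514-575573, plus strand), EFT2 (chrIV:1243646-1243705, plus strand), TIF1 (coding bases 197 to 256, chrXI:555183-555242, plus strand), TIF2 (chrX:154436-154495, minus strand), HYP2 (coding bases 286 to 345, chrV:85961-86020, plus strand) and ANB1 (chrX:525037-525096, minus strand) read as follows, 5′ to 3′.
TEF1: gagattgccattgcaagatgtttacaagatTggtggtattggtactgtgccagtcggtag
TEF2: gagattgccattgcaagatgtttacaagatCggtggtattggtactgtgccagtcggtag
EFT1: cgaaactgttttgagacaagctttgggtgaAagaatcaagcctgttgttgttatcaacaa
EFT2: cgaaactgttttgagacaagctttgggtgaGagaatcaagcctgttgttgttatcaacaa
TIF1: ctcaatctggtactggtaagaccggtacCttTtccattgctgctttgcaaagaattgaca
TIF2: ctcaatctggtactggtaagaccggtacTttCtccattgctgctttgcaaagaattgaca
HYP2: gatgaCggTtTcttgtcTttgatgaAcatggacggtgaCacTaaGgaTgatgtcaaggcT
ANB1: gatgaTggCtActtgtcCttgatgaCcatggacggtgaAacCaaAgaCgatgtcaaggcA
The eIF4A genes TIF1 and TIF2, whose product is the helicase of the cap complex, had scores as follows. TIF1 scored 0.0323, 0.0175 and 0.00126 per fl over the 3 elutriation experiments, and TIF2 scored 0.0205, 0.0261 and 0.00796 per fl. In the time course they scored -0.0183 and -0.0203 per fl and in unelutriated WT cells -0.0746 and -0.0255 per hour. TIF1 scored 72.6 per hour in elutriated WT cells, where TIF2 has no score.

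TEF4 and CAM1 encode the gamma subunit of eEF1B, which recharges eEF1A with GTP, and their coding sequences are 68.6% identical. TEF4 scored 0.113, 0.0451 and 0.0103 per fl in experiments 1 to 3 and -0.0131 per fl in the time course, with 17.5 and 0.170 per hour in elutriated and unelutriated WT cells. Its lowest percentile in the 6 series was 73.3, in experiment 3. CAM1 scored 0.00983, -0.00744 and 0.000290 per fl in experiments 1 to 3 and -0.00727 per fl in the time course, with 1.94 and 0.0265 per hour in elutriated and unelutriated WT cells. Its percentile of 89.9 in the time course was the highest of the 45 factors there, where TEF4 had 77.3. EFB1, the catalytic subunit of the same complex, lay above the median gene throughout, at 0.0663, 0.0212 and 0.0135 per fl.

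YEF3 encodes eEF3, the fungal ATPase that clears the exit site of the ribosome, and HEF3 is its copy, seldom used in growing cells and 74.5% identical. YEF3 scored 0.0667, 0.0419 and 0.00461 per fl in experiments 1 to 3, -0.0181 per fl in the time course, and 25.6 and 0.245 per hour in elutriated and unelutriated WT cells. HEF3 scored -0.0386, 0.00986 and -0.00745 per fl in experiments 1 to 3, -0.0531 per fl in the time course, and 0.243 and -0.00645 per hour in elutriated and unelutriated WT cells. YEF3 had a median of 223 reads and HEF3 of 6, and HEF3 was the lowest factor in experiment 1, at the 2.10th percentile. ANB1, the eIF5A gene that is repressed in air, had a median of 2.5 reads. It scored 0.00445 and 0.0103 per fl in experiments 2 and 3 and 0.0879 per hour in elutriated WT cells. Its score of -0.397 per fl in the time course is the lowest of all 6649 genes scored there, and it has no score in unelutriated WT cells.

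Both termination factors lay above the median gene throughout, as did 22.3% of all genes. SUP35 (eRF3), the GTPase of termination, scored 0.0454, 0.0496 and 0.00734 per fl, and SUP45 (eRF1), which reads the stop codon, scored 0.0470, 0.0421 and 0.0102 per fl. Their percentiles were alike, at 81.1, 85.9 and 67.3 for SUP35 and 81.7, 82.5 and 73.1 for SUP45. In the time course they were below the middle of all genes, at -0.0220 per fl for SUP35 and -0.0241 per fl for SUP45. In elutriated WT cells SUP35 scored -0.445 per hour, at the 0.907th percentile, and SUP45 0.684 per hour, at the 73.6th. Without elutriation the WT scores were -0.0518 per hour for SUP35 and -0.204 per hour for SUP45. By limma SUP45 exceeded the median gene by 0.0264 per fl, with an SE of 0.00888, an unadjusted p of 0.0456 and an adjusted p of 0.460. SUP35 lay 0.0274 per fl over it with an SE of 0.00981 and an adjusted p of 0.460.

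In the Gcn pathway 1 of 4 genes, GCN1, lay above the median gene throughout (25%, against 22.3% of all genes). None lay below throughout (0%, against 22.5%). The share above was thus near that of all genes. GCN1, the ribosome-bound partner of Gcn2, scored 0.0719, 0.0131 and 0.00438 per fl in experiments 1 to 3 and -0.0137 per fl in the time course. Its WT scores were far apart, at 20.9 per hour after elutriation and -0.237 per hour without it. The kinase gene GCN2 scored 0.00398, 0.00141 and 0.0105 per fl in experiments 1 to 3 and -0.0191 per fl in the time course, at percentiles of 33.3 to 73.6 there, and 5.68 and -0.0292 per hour in elutriated and unelutriated WT cells. GCN20, an ABC protein that works with Gcn1, scored 0.0353, 0.00832 and -0.00135 per fl in experiments 1 to 3, -0.0265 per fl in the time course and 0.0327 per hour in elutriated WT cells. GCN4, whose mRNA was the most abundant of the 45 by read count (623 reads, not per length), scored 0.0272, -0.00439 and 0.00249 per fl in experiments 1 to 3 and -0.00931 per fl in the time course. In elutriated and unelutriated WT cells GCN4 scored 15.1 and -0.000510 per hour. GCN4 thus stood with eEF1A and eEF2, low in experiment 2 (percentile 23.3) and high in the time course (86.5). Gcn4 is controlled mainly at translation, which these data do not measure.

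A list of 21 genes of amino acid synthesis that Gcn4 is known to activate had 20 genes scored in all 3 experiments. Of these, 8 lay above the median gene throughout (40%, against 22.3% of all genes) and 3 below (15%, against 22.5%). Their median percentile was 59.2, 79.1 and 68.1 in experiments 1 to 3 and 89.0 in the time course. In WT cells it was 75.4 after elutriation and 48.4 without it. ARG1, of arginine synthesis, was the highest of them, at 0.597, 0.0583 and 0.0720 per fl in experiments 1 to 3 and 0.0281 per fl in the time course. SER3, of serine synthesis, was the lowest, at -0.00763, -0.0115 and -0.00861 per fl and -0.0293 per fl in the time course. Enzymes that modify the factors (the hypusine, diphthamide and methylation enzymes) had 11 of 15 scored genes above the median gene throughout (73.3%) and 0 below. The diphthamide gene DPH1, with 9.5 reads, was their highest, at 0.555, 0.0304 and 0.0293 per fl, and the methyltransferase gene EFM3 their lowest, at -0.0135, 0.000192 and 0.0138 per fl. EFM7 was not found under that name and JJJ3 was not scored in all 3. Further factors of recycling, rescue and initiation had 10 of 15 above throughout (66.7%) and 1 below (6.67%). RLI1, the ATPase that splits ribosomes after termination, had their highest mean, at 0.0893, 0.0830 and 0.00150 per fl, and DBP1, the copy of DED1, was the lowest, at -0.0180, -0.00323 and -0.00615 per fl.

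Upstream of these genes the R64 genome was searched for 5 short motifs in the 500 bases before the start codon, on both strands, in 5983 genes. The motif AAAATTTT, the core of the RRPE element found before many ribosome biogenesis genes, occurred before 26 of the 45 factors (57.8%), against 12.4% of all genes. It stood before 15 of 28 initiation genes, 8 of 11 elongation genes, both termination genes and 1 of 4 Gcn pathway genes. The PAC motif GATGAG occurred before 15 factors (33.3%), against 28.3% of all genes. The Gcn4-type motif TGACTCA occurred before 1 factor, SUP35 (2.22%), against 4.01% of all genes, and the Abf1-type motif before 4 factors (8.89%), against 12.6%. The Rap1-type motif, known from ribosomal protein promoters, occurred before 2 factors, TEF2 and TEF4 (4.44%), against 2.22% of all genes. AAAATTTT is its own reverse complement. A match in a window is a description of its letters and not of a bound site.

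A site of AAAATTTT (capitals) is shown for a gene of each kind, since this motif set the factors apart from the share in all genes. The sites are NIP1 (chrXIII:895569-895598, minus strand, 161 bases before the start codon), GCD11 (chrV:205105-205134, plus strand, 135 bases), GCD1 (chrXV:813842-813871, plus strand, 131 bases), TIF1 (chrXI:554793-554822, plus strand, 183 bases), TIF5 (chrXVI:648484-648513, plus strand, 209 bases), EFB1 (chrI:142006-142035, plus strand, 157 bases), SUP45 (chrII:532332-532361, minus strand, 168 bases) and GCN20 (chrVI:162325-162354, plus strand, 152 bases), each read 5′ to 3′ on the strand of its gene.
NIP1: ttcgccgttgaAAAATTTTtcaatgagaaa
GCD11: ttgccattgaaAAAATTTTcatagaatagc
GCD1: ccgcctatcgcAAAATTTTtcacttctcat
TIF1: atagtgactgaAAAATTTTtgcattctcac
TIF5: gtaaatagtgaAAAATTTTcatcgcgaagt
EFB1: cctttgaagaaAAAATTTTtcacattgtcg
SUP45: accctgaatgaAAAATTTTttcagaaatcc
GCN20: ttttgttcctgAAAATTTTtcgtattatta
Factors with the motif had median percentiles of 81.5, 68.1 and 57.8 in the 3 elutriation experiments, against 66.2, 54.3 and 55.6 for factors without it. The time course gave 52.0 with and 54.6 without. In WT cells the factors had 93.3 with the motif and 82.7 without it after elutriation, and 78.0 and 61.2 in unelutriated cells. Over the whole table, genes with AAAATTTT had 65.8, 69.9 and 60.4 in those experiments, against 49.4, 48.6 and 49.7 for genes without it. The time course had the other order for all genes, at 41.6 with and 50.8 without. In WT cells all genes had 57.2 with and 51.3 without after elutriation, and 43.0 and 47.7 in unelutriated cells. These values are descriptions with no test.

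The difference between arrested and WT cells was examined on ranks, because the units differ. Within each series the scores of the 5296 genes scored in all 6 were turned into rank normal scores, where 0 is the middle and 1 is 1 SD of a normal distribution, and limma compared the 4 Cdc28-as series with the 2 WT series. Of the 41 factors with all 6 scores none passed at an adjusted p of 0.05, as did none of all genes (0%). At an unadjusted p under 0.05 limma gave 3 factors higher in Cdc28-as and 5 lower, where 6.5% of all genes were higher and 6.02% lower. The 3 were GCD1, GCN3 and SUP35. The low WT mean of SUP35 came mostly from 1 series, with normal scores of -2.37 in elutriated and -0.0756 in unelutriated WT cells. GCD1 had a mean normal score of 0.920 in Cdc28-as and -1.31 in WT series, a difference of 2.23 with an SE of 0.734 and an adjusted p of 0.246 by limma. The 5 were DED1, EFT2, GCD11, HEF3 and SUI1. DED1, GCN3 and HEF3 had medians of only 10, 9.5 and 6 reads in experiment 1, against 77.5 over the 45 factors. GCD1, SUP35, EFT2, GCD11 and SUI1 had 32 to 142 reads. DED1 averaged -0.404 in Cdc28-as and 1.71 in WT series, a difference of -2.12 with an SE of 0.643 and an adjusted p of 0.246 by limma. EFT2 averaged 0.562 in Cdc28-as and 2.30 in WT series, so it was above the middle in both. Its near-identical copy EFT1, which most short reads cannot tell from it, differed by only -0.753, with an unadjusted p of 0.317 by limma. The copies were furthest apart in unelutriated WT cells, with normal scores of 0.209 for EFT1 and 1.99 for EFT2. The median difference of the 41 factors was -0.567, against -0.0142 for all genes, and it was -0.637 with elutriation as a second term. Without the elutriated WT series it was -0.166, and among genes with 50 or more reads -0.203. By role it was -0.419 for 26 initiation genes, -0.940 for 10 elongation genes, 1.47 for the 2 termination genes and -0.657 for 3 Gcn pathway genes. The elongation genes include TEF1 with TEF2 and EFT1 with EFT2, near-identical copies counted as separate genes.

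**Figure D4:**
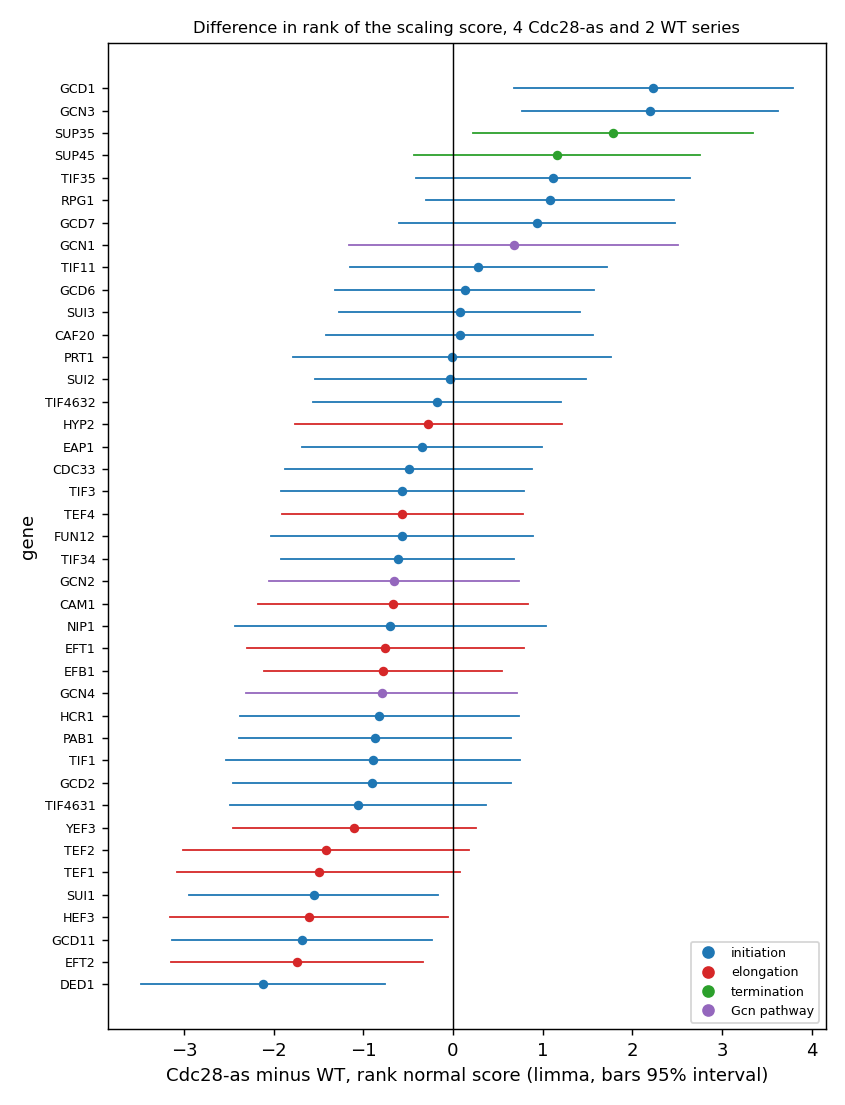
Cdc28-as minus WT difference in rank normal score for the 41 translation factors scored in all 6 series (points coloured by role; bars, 95% interval from limma). GCD1, GCN3 and SUP35 at the top have intervals above 0 and DED1, EFT2, GCD11, HEF3 and SUI1 at the bottom have intervals below 0, all before adjustment over all genes.

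The factors were set beside cytosolic ribosomal protein genes, and the difference between the lists was not tested. The translation factors had median percentiles of 80.8, 65.4 and 55.6 after elutriation and 52.3 in the time course, against 89.9, 60.5, 58.1 and 80.7 for 137 ribosomal protein genes. The gap was widest in the time course, where the elongation genes (82.4) stood near the ribosomal proteins and the initiation genes (49.6) did not. In WT cells the factors had 84.4 after elutriation and 65.7 without it, and ribosomal proteins 93.6 and 73.7. Above the median gene throughout lay 74 of the 137 ribosomal protein genes (54.0%) and 18 of 44 factors (40.9%), against 22.3% of all genes. Below it throughout lay 0 ribosomal protein genes and 2 factors (4.55%), against 22.5%. Factor scores at or over the slope of a level in proportion to size were found for 11 of 44 genes in experiment 1 (25%, against 12.9% of all genes), 2 of 45 in experiment 2 (4.44%, against 8.87%), 1 of 45 in experiment 3 (2.22%, against 3.14%) and 0 of 45 in the time course (0%, against 0.632%). No factor was at or over that slope in more than 1 elutriation experiment except NIP1, in experiments 1 and 2, and GCD1, in the same 2. The slope marks a transcript in proportion to size only if the level is an amount per cell, which is not given.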

How the data were processed

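The authors deposited 1 table with a scaling score per gene for each of 6 series. They also deposited in it a median read count for experiment 1, read here as an unscaled signal. Of the read counts, 2779 are not whole numbers, as a median of 5 raw counts would be. The column is thus not a plain median of the raw counts of all 5 libraries. How it was made is not given, and it was used here only as a guide to depth. The submitters' processing notes name Bowtie2 and build R64. The sources used here do not give the counting, use of strand, depth normalization, use of the added Candida reads or the score's formula. Depth per library is unknown. A gene detected in the first library alone would have a slope of -0.0197 per fl in experiment 1, held by 104 genes, of -0.0218 per fl in experiment 3 (111 genes), and of -0.143 and -0.106 per hour in WT cells (96 and 44 genes). Only 2 and 3 genes hold it in experiment 2 and the time course.

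Identifiers were matched to R64 (6022 of 6713). Percentiles used mid-ranks. limma 3.58.1 in R 4.3.3 tested the score over the median gene in the 3 elutriation experiments, and rank normal scores between 4 Cdc28-as and 2 WT series, with Benjamini-Hochberg adjustment over all genes. Both tests were first tested on simulated data, where each missed most genes given a shift of 3 SD. A count of 0 calls therefore does not show that no gene differs. Members and gene lists were chosen with earlier results of these data known. The text gives all 6 scores for paralogue pairs, termination and Gcn genes and the highest and lowest gene of each initiation complex, and the highest and lowest gene of each further list. Coding sequences were aligned with Biopython 1.88. Alternatives changed the centring, scale, read filter, variance model and series used.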

Additional observations from a re-analysis of the deposited data

How the results depend on the processing

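With so few series, limma's counts of 0 say nothing about stability. They were 0 genes and 0 translation factors with rank normal scores, with filters at 10 or 50 reads, with all 4 Cdc28-as series, with trend and robust settings, with elutriation as a second term, or with any series left out, each in the comparison where it could be run. The filter at 50 reads was chosen after seeing the data. The 18 factors above the median gene throughout became 11 when the time course had to share the direction (25%, against 13.1% of all genes). Without centring the scores were set against 0 and not the median gene, and 25 factors lay above 0 throughout (56.8%, against 35.5%). Among genes with 50 or more reads 13 lay above the median gene throughout (41.9%, against 26.1%). Without experiment 1, 2 or 3 the factors above were 21 (46.7%, against 31%), 23 (52.3%, against 32.2%) and 26 (59.1%, against 31.3%). The 2 factors below throughout became 1 without centring, where below means a score under 0 (2.27%, against 12% of all genes). They were also 1 among genes with 10 or more reads (2.44%, against 24%) and 1 with all 4 Cdc28-as series (2.27%, against 13.4%). With an elutriation experiment left out the factors below were 7 without experiment 1 (15.6%, against 31%), 3 without experiment 2 (6.82%, against 32.2%) and 5 without experiment 3 (11.4%, against 31.3%). Fewer series to satisfy raise such counts by construction. The median factor's mean over the median gene lay between 0.00650 and 0.0206 per fl with an experiment left out, and the Cdc28-as minus WT median between -0.826 and -0.166 with a series left out. With both WT series kept it was -0.567, and the cause of the weaker value of -0.166 without elutriated WT cells was not tested. No paired analysis was possible because the table holds 1 score per series. Depth limits ANB1, HEF3, CAF20 and GCN3, at under 10 reads in experiment 1.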
